A study of Mus musculus with 16 samples.

Results

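The mitochondrial genome carries 13 protein-coding genes, and the kidney libraries analysed here counted transcripts of all 13. Described here are 10 of them, which were chosen by name: mt-Nd1, mt-Nd2, mt-Nd3, mt-Nd4, mt-Nd5, mt-Cytb, mt-Co1, mt-Co2, mt-Co3 and mt-Atp6. Each was found in the deposited table of 40472 genes by its Ensembl identifier, and each passed the filter on low counts, since the lowest count of any of them in any library was 657 (mt-Nd3). Gene counts came from sequencing of poly(A)-selected RNA from whole kidneys of male C57BL/6 mice aged 12 weeks, in 4 groups of 4 libraries. Group IRP had renal ischemia reperfusion, in which the blood supply of the kidney is stopped and restored, and received PJ34, which blocks PARP enzymes (poly(ADP-ribose) polymerases). Group IRV had the same surgery and received vehicle. Group NP had no ischemia reperfusion and received PJ34, and group NV had no ischemia reperfusion and received vehicle. The labels give neither the dose of PJ34 nor the day of tissue collection, and the study asked about lasting effects of PARP inhibition after renal injury. Because the labels do not tie libraries to individual mice, p-values cover only the spread from one library to the next.

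The mitochondrial genome is a small circular DNA that lies in many copies inside mitochondria and is transcribed by its own polymerase into long precursors, which are cut into messenger, ribosomal and transfer RNAs. All of its messenger RNAs encode core subunits of the respiratory chain complexes I, III and IV or of ATP synthase, and the other subunits of these complexes are encoded in the nucleus and imported. The proximal tubule of the kidney is packed with mitochondria, because the reabsorption of salt, glucose and amino acids there runs on ATP from respiration.

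Total counts ran from 973812 to 6169748 per library. At least 4963638 counts were found in each of 6 libraries, called deep below (all of IRP, and replicates 3 and 4 of IRV), and at most 1659983 in the other 10, called shallow. Depth therefore differed between all IRP and all NP libraries and split the IRV group. The submitters' names of the deep and the shallow IRV libraries also carry different codes, which the labels do not explain. Depth and whatever these codes stand for cannot be told apart within IRV. All 12 proximal tubule markers examined had counts in every library. Their summed level was 10869 to 23043 counts per 1000000 (CPM) in IRP libraries, 11246 to 16843 CPM in IRV libraries, 22197 to 28373 CPM in NP libraries and 24061 to 25182 CPM in NV libraries. IRP replicate 2 stood apart from the other injured libraries in the levels described below, and values without it are given beside the results it moved most.

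The 10 mitochondrial messenger RNAs made up a large share of every library, and this share was smaller in injured kidneys that had received vehicle than in uninjured ones. In IRV replicates 1 to 4 they took 10.2%, 17.3%, 14.3% and 15.8% of all counts, against 20.8%, 21.0%, 22.2% and 20.04% in NV replicates 1 to 4. The highest IRV library lay below the lowest NV library. In IRP replicates 1 to 4 they took 12.7%, 24.5%, 18.6% and 17.1%, against 22.5%, 20.2%, 21.0% and 18.5% in NP replicates 1 to 4. These groups overlapped, with IRP replicates 2 and 3 above NP replicate 4. IRP replicate 2 had the highest share of all 16 libraries, and IRP replicate 1 the second lowest. The group means were 18.2% ± 4.9 in IRP, 14.4% ± 3.0 in IRV, 20.6% ± 1.7 in NP and 21.0% ± 0.88 in NV (SD, n = 4 libraries each). The SD was thus wider in both injured groups than in both uninjured groups. Without replicate 2 the IRP mean was 16.1% ± 3.1 (SD, n = 3). Counting error was far smaller than these spreads, with an exact 95% binomial interval of 12.63% to 12.69% for IRP replicate 1. These intervals cover counting error only. Because whole kidneys were sequenced, fewer cells of a type and less mitochondrial RNA per cell cannot be told apart.

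**Figure D1:**
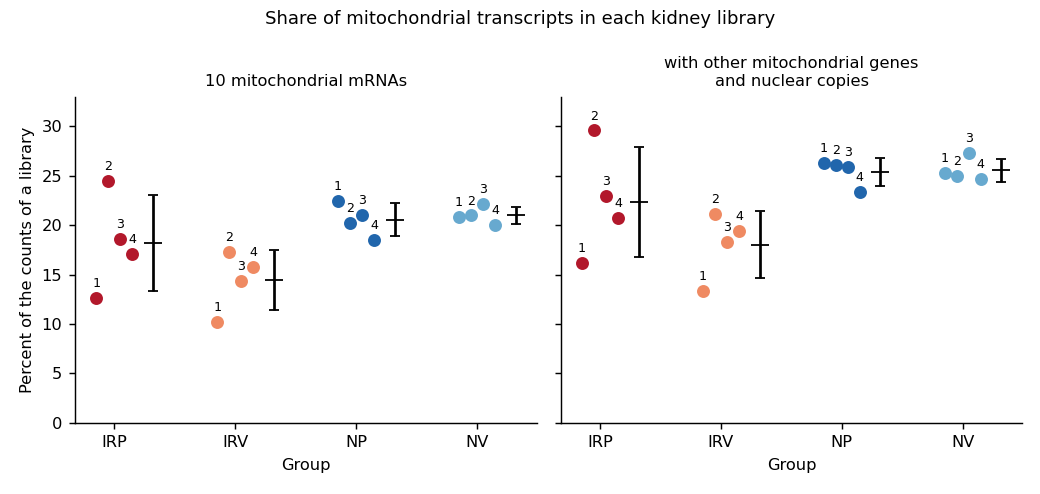
Percent of the counts of each library (vertical axis) taken by the 10 mitochondrial mRNAs (left) and by these plus the other mitochondrial genes and the nuclear copies (right), with the replicate number above each point and the group mean ± SD beside the points (n = 4 libraries a group). The 4 IRV libraries sit between 10.2% and 17.3% on the left, below the 4 NV libraries at 20.04% to 22.2%, and IRP replicate 2 is the highest point of both panels.

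Within one library, the members differed widely in level once the length of the transcript was taken into account. In NV kidneys mt-Atp6, subunit a of ATP synthase, had the highest level per length, at 37344 ± 5844 CPM per kilobase of transcript (SD, n = 4). It was followed by mt-Cytb, the cytochrome b of complex III, at 32692 ± 2644 and by mt-Co1, the catalytic core subunit of cytochrome c oxidase, at 32384 ± 1994 CPM per kilobase. The ranges of these 3 overlapped. Next came mt-Nd1 at 26217 ± 2544, mt-Nd4 at 25453 ± 1700, mt-Co2 at 25205 ± 2116 and mt-Nd2 at 24151 ± 1882 CPM per kilobase, again with overlapping ranges. Then mt-Nd5, at 19293 ± 1711 CPM per kilobase, mt-Co3 and mt-Nd3 each lay below the gene before them without overlap. mt-Nd3 was the lowest in all 4 groups, at 1767 ± 892 CPM per kilobase in IRP, 1625 ± 857 in IRV, 4144 ± 1123 in NP and 3538 ± 440 in NV. As deposited, mt-Co3 was second from the bottom in each group, with means of 6717 CPM per kilobase in IRP, 5364 in IRV, 12511 in NP and 13217 in NV. The order among the other 8 shifted between groups within overlapping ranges.

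The counts of several members depend on how the authors' quantification shared reads with copies of mitochondrial genes in the nuclear genome. The mouse nucleus holds inserted fragments of mitochondrial DNA, some of which are annotated as genes. A search of the GENCODE M21 transcripts (build GRCm38) for copies at 95% identity or more over at least 90% of their length found 11 that are present in the table. Of these, 4 are identical to a member along their whole length: Gm10925 to mt-Atp6, Gm28661 to mt-Co2, Gm28437 to mt-Co3, and Gm28439 to 876 of the 1378 bases of mt-Nd4. No copy was found for mt-Nd1 or mt-Cytb. The last 60 bases of 3 members and of their copies show how little separates them, with the bases that the copy lacks in capitals:
mt-Co2: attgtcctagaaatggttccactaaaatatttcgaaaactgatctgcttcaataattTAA
Gm28661: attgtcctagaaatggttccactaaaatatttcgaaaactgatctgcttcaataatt
mt-Atp6: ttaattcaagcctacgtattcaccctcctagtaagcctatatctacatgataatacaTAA
Gm10925: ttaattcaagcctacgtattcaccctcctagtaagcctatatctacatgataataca
mt-Co3: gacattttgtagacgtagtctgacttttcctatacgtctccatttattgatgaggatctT
Gm28437: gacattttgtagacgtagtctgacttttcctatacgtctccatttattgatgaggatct
A read from within the shared stretch holds nothing that could assign it to one gene or the other.

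The split between a member and its identical copy varied from library to library, and for mt-Co2 and mt-Atp6 their sum varied less among NP and IRP libraries than the member alone did. Gm10925 took 46.2% of the joint counts of the mt-Atp6 pair over all libraries, and between 29.7% and 65.7% in single libraries. Gm28661 took 40.8% of the mt-Co2 pair, with a range of 21.9% to 59.1%, and Gm28437 took 42.6% of the mt-Co3 pair, with a range of 14.7% to 58.2%. Gm28439 took 25.7% of the mt-Nd4 pair, with a range of 19.5% to 29.9%. In the 4 NP libraries, whose tissue had the same labels, mt-Co2 alone ranged 1.68-fold between the highest and lowest share of a library, but the sum with its copy ranged 1.08-fold. mt-Atp6 alone ranged 1.86-fold among NP libraries and the sum ranged 1.24-fold. Among IRP libraries mt-Co2 alone ranged 2.84-fold and the sum 1.67-fold. For mt-Atp6 in IRP it was 2.24-fold alone and 1.95-fold for the sum. The sum varied more than the member for mt-Co3 in NP, at 1.33-fold against 1.20-fold alone. It also did for mt-Nd4 in NP, at 1.36-fold against 1.28-fold alone, and in IRV, at 1.63-fold against 1.53-fold alone. For mt-Co2 in NV the sum ranged 1.09-fold and the member alone 1.08-fold. For mt-Nd3 the near-identical copy Gm28438 (1 mismatch) was listed at 0 in 9 libraries, all shallow, and took up to 46.8% of the joint counts in another. It had counts in all deep libraries and, of the shallow ones, in NP replicate 4 only. For mt-Co2, mt-Co3, mt-Atp6, mt-Nd4 and mt-Nd3 the injury effects are therefore given below as deposited and with the copies' counts added. With the copies added, mt-Co2 moved to the second place in the order of levels per length in all 4 groups (38576 ± 2388 CPM per kilobase in NV), and mt-Atp6 was first (67152 ± 6686 CPM per kilobase in NV). mt-Co3 then lay above mt-Nd5 in IRP, at 11792 against 11650 CPM per kilobase, and in NP, at 19264 against 18885.

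**Figure D2:**
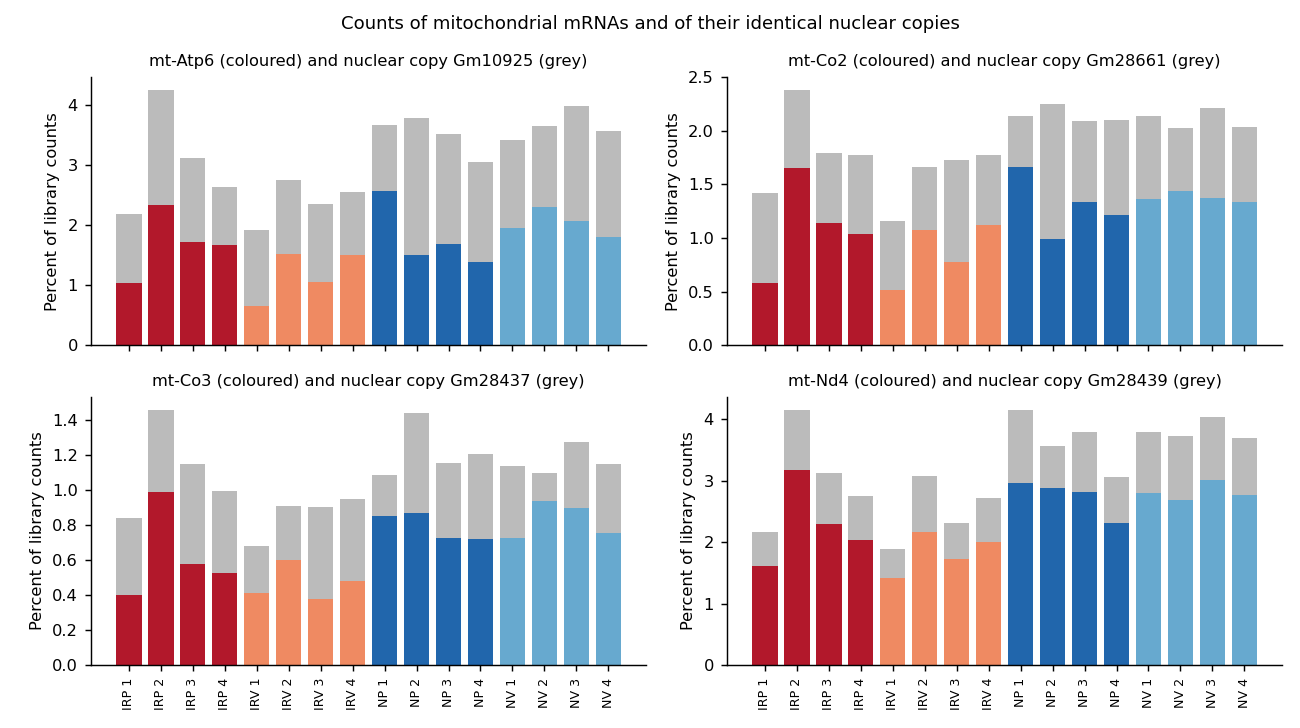
Percent of library counts (vertical axes) of 4 mitochondrial mRNAs (coloured, by group) and of their identical nuclear copies (grey, stacked) in each of the 16 libraries. In the mt-Co2 panel the 4 NP bars all reach 2.09% to 2.25% of the library while the coloured part runs from 0.989% to 1.67%. Among the NV bars of that panel the full height varies as much as the coloured part, 1.09-fold against 1.08-fold.

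Neighbouring genes of the mitochondrial genome also share bases. The end of mt-Atp8 and the start of mt-Atp6 overlap by 43 bases, shown in capitals with 20 bases on either side, and mt-Nd4l and mt-Nd4 overlap by 7 bases:
mt-Atp8/mt-Atp6: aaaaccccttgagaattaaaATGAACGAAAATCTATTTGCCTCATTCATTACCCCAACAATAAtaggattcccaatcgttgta
mt-Nd4l/mt-Nd4: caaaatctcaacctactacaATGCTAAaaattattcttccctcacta
Each pair is carried on a joint messenger RNA, so that the counts of mt-Atp6 and mt-Nd4 and those of their partners are not independent. Poly(A) selection bears on these genes as well, because mt-Nd4, mt-Cytb and mt-Co3 have no complete stop codon in the DNA and gain it from the poly(A) tail. Their transcripts end with a single T after the last full codon, in capitals in the last 30 bases:
mt-Nd4: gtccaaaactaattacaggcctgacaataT
mt-Cytb: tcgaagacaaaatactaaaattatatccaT
mt-Co3: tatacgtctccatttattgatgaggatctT

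The effect of injury without PJ34 is given by IRV against NV. All 10 mitochondrial messenger RNAs were lower in IRV kidneys. Levels in this and the next comparisons are CPM of library sizes scaled by the trimmed mean of M-values (TMM), and calls are Benjamini-Hochberg adjusted p-values of at most 0.05 in edgeR's quasi-likelihood test over 13614 genes. Where genes are counted as having fallen or risen, the count is of such calls, and the other genes of the set may also have moved. The log2 fold changes of the 10 ran from -0.86 to -1.30 with a median of -1.11, beside a median of -0.03 over all genes tested. The 10 of 10 called lower stand beside 11.1% of all genes called lower and 15.9% called higher. All 10 had no overlap between the groups in CPM, beside 11.9% of all genes that were lower without overlap, and 8 of 10 had none as a share of the library total, beside 1.58%.

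Complex I, which takes electrons from NADH, has 5 of its membrane subunits among these genes. mt-Nd1, which lies at the joint with the peripheral arm, had 11306, 17393, 14590 and 12115 CPM in IRV replicates 1 to 4, against 25016, 25023, 28139 and 22178 CPM in NV replicates 1 to 4. Every IRV library was below every NV library, and the log2 fold change was -0.86 ± 0.22 (SE, edgeR adjusted p = 0.0086). mt-Nd2, a proton-pumping subunit, had 9940, 17298, 11446 and 11714 CPM in IRV libraries, against 23604, 26295, 27158 and 23216 CPM in NV libraries. It was lower by a log2 fold change of -0.99 ± 0.24 (edgeR adjusted p = 0.0062), with IRV replicate 2 nearest to the NV libraries. mt-Nd4, another proton-pumping subunit, averaged 16230 ± 3855 CPM in IRV and 35074 ± 2343 CPM in NV (SD, n = 4 each), with a log2 fold change of -1.11 ± 0.26 (edgeR adjusted p = 0.0045), and one of -1.09 ± 0.26 with its copy added. For mt-Nd5, the pumping subunit at the far end of the membrane arm, the means were 17990 ± 5191 CPM in IRV and 35190 ± 3121 CPM in NV, with a log2 fold change of -0.97 ± 0.26 (edgeR adjusted p = 0.011). mt-Nd3, a short subunit near the quinone site, had 675, 929.9, 396 and 260.4 CPM in IRV libraries, against 1147, 1268, 1429 and 1080.3 CPM in NV libraries. It had the widest error of the 10, with a log2 fold change of -1.13 ± 0.37 (edgeR adjusted p = 0.029). With its copy added the change of mt-Nd3 was -0.89 ± 0.23 (edgeR adjusted p = 0.0092).

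mt-Cytb, the only mitochondrially encoded subunit of complex III, had 13036, 24607, 14858 and 17284 CPM in IRV replicates 1 to 4, against 35400, 40150, 39818 and 34232 CPM in NV replicates 1 to 4. All IRV libraries were below all NV libraries, with a log2 fold change of -1.10 ± 0.27 (edgeR adjusted p = 0.0066). Of the 3 core subunits of cytochrome c oxidase, which passes electrons to oxygen, mt-Co1 had 23264, 34751, 22895 and 25298 CPM in IRV libraries, against 50444, 50400, 53379 and 45912 CPM in NV libraries. Its log2 fold change was -0.91 ± 0.23 (edgeR adjusted p = 0.0082). mt-Co2, which receives electrons from cytochrome c, averaged 7673 ± 2660 CPM in IRV and 17240 ± 1447 CPM in NV (SD, n = 4 each), a log2 fold change of -1.17 ± 0.33 (edgeR adjusted p = 0.013), and of -0.92 ± 0.21 (edgeR adjusted p = 0.0041) with the copy added. mt-Co3 had the largest fold change of the 10, with 4116, 6050, 2869 and 3787 CPM in IRV libraries, against 8717, 12486, 11298 and 8947 CPM in NV libraries. Its log2 fold change was -1.30 ± 0.30 (edgeR adjusted p = 0.0042) as deposited and -0.94 ± 0.21 (edgeR adjusted p = 0.0038) with the copy added, so that its place as the largest did not hold with the copies added. mt-Atp6 had 6616, 15321, 8074 and 11862 CPM in IRV libraries, against 23487, 30614, 26224 and 21400 CPM in NV libraries, a log2 fold change of -1.28 ± 0.33 (edgeR adjusted p = 0.0081) and of -1.10 ± 0.25 (edgeR adjusted p = 0.0040) with the copy added.

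**Figure D3:**
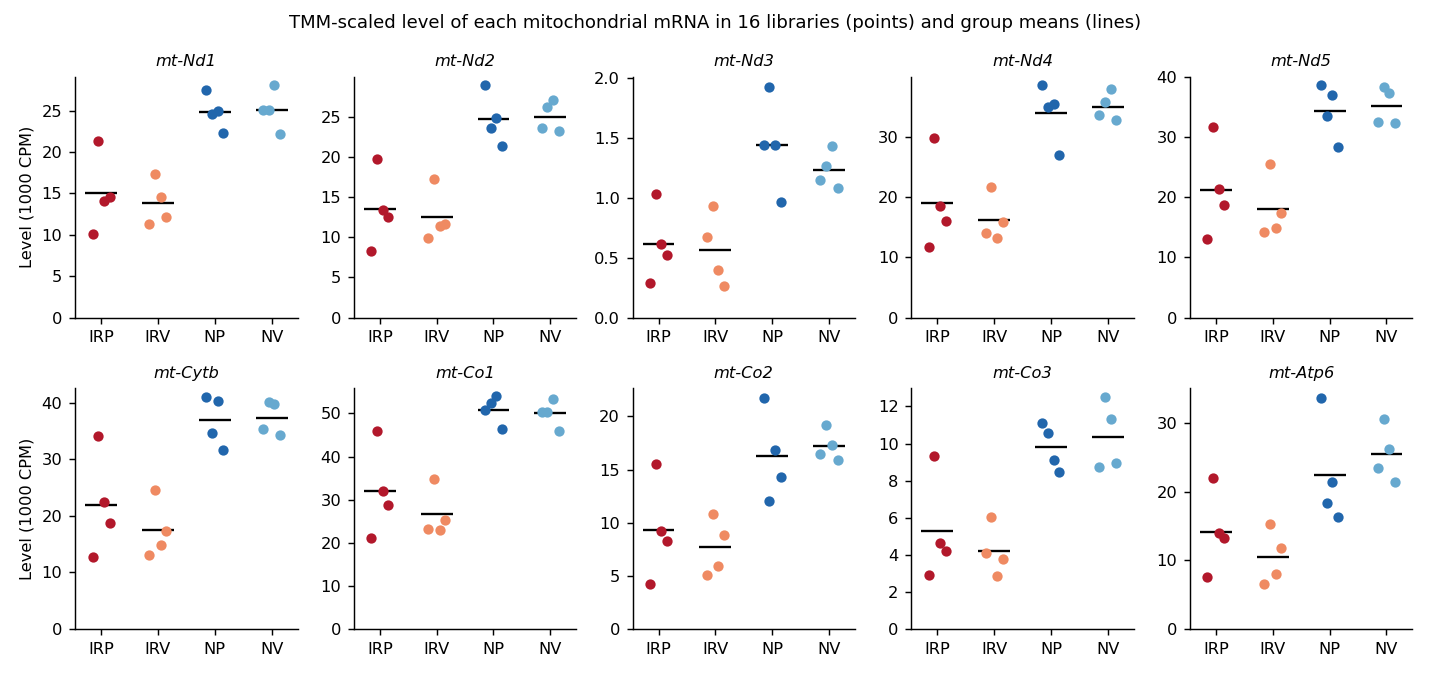
TMM-scaled level in 1000 CPM (vertical axes, from 0) of each mitochondrial mRNA in the 16 libraries (points, 4 a group, in order of replicate number from left to right) with the group means (lines). In each panel the 4 IRV points lie below the 4 NV points, and the highest IRP point is replicate 2.

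The comparison of IRP with NP asked the same of kidneys that had received PJ34. Here 8 of the 10 were called lower, beside 24% of all genes called lower and 19.6% called higher, and mt-Co2 and mt-Atp6 did not pass the test. The 10 log2 fold changes ran from -0.66 to -1.23 with a median of -0.78, beside a median of -0.01 over all genes. Only mt-Nd1, mt-Nd2 and mt-Co1 had no overlap between the groups in CPM, beside 21.2% of all genes, and none of the 10 had as a share of the library total, beside 12.3%. mt-Nd2 had 8357, 19766, 13360 and 12575 CPM in IRP replicates 1 to 4, against 28951, 23603, 24840 and 21430 CPM in NP replicates 1 to 4, a log2 fold change of -0.87 ± 0.24 (edgeR adjusted p = 0.0081). Replicate 2 was the highest IRP library for this gene and for the other 9. mt-Nd3 had 289.5, 1032, 616 and 522 CPM in IRP libraries, against 1440.4, 1923, 1439.7 and 966 CPM in NP libraries. It had the largest fold change of the 10 in this comparison, -1.23 ± 0.36 (edgeR adjusted p = 0.012), and -1.08 ± 0.23 (edgeR adjusted p = 0.0016) with its copy added. That copy had counts in every IRP library but, of the NP libraries, in replicate 4 only.

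The other members of complex I also fell, with smaller fold changes than mt-Nd3. mt-Nd1 averaged 15015 ± 4683 CPM in IRP and 24833 ± 2152 CPM in NP (SD, n = 4 each), with a log2 fold change of -0.73 ± 0.22 (edgeR adjusted p = 0.014). mt-Nd4 averaged 19048 ± 7776 CPM in IRP and 34067 ± 4933 CPM in NP, with a log2 fold change of -0.84 ± 0.26 (edgeR adjusted p = 0.015) and of -0.83 ± 0.26 with its copy added. mt-Nd5 averaged 21219 ± 7806 CPM in IRP and 34402 ± 4571 CPM in NP, with one of -0.70 ± 0.26 (edgeR adjusted p = 0.038). In complex III, mt-Cytb had 12672, 34076, 22509 and 18705 CPM in IRP libraries, against 41114, 34696, 40344 and 31648 CPM in NP libraries, and fell by 0.75 ± 0.27 on the log2 scale (edgeR adjusted p = 0.034). IRP replicate 2 lay above NP replicate 4 for mt-Cytb.

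Among the oxidase subunits, mt-Co1 had 21114, 46008, 32115 and 28804 CPM in IRP libraries, against 50724, 52344, 54135 and 46374 CPM in NP libraries. Its log2 fold change was -0.67 ± 0.23 (edgeR adjusted p = 0.028), and IRP replicate 2 lay just below the lowest NP library. mt-Co3 averaged 5266 ± 2801 CPM in IRP and 9809 ± 1236 CPM in NP, with a log2 fold change of -0.90 ± 0.30 (edgeR adjusted p = 0.022), and of -0.71 ± 0.21 (edgeR adjusted p = 0.012) with the copy added. For mt-Co2 the libraries held 4223, 15568, 9202 and 8239 CPM in IRP and 21760, 12060, 16874 and 14283 CPM in NP, and the log2 fold change was -0.80 ± 0.32 (edgeR adjusted p = 0.054). mt-Atp6 had 7582, 22017, 13918 and 13194 CPM in IRP libraries and 33687, 18405, 21383 and 16262 CPM in NP libraries, with a log2 fold change of -0.66 ± 0.32 (edgeR adjusted p = 0.11). These are 2 of the members with the most counts in an identical copy. With the copies added, mt-Co2 had 10414, 22606, 14623 and 14124 CPM in IRP libraries, against 28019, 27686, 26573 and 24801 CPM in NP libraries, and its log2 fold change was -0.79 ± 0.21 (edgeR adjusted p = 0.0059). mt-Atp6 with its copy changed by -0.77 ± 0.25 (edgeR adjusted p = 0.020), and all 10 members were then called lower in both comparisons, beside 11.1% of genes called lower and 15.8% higher for IRV against NV, and 24% lower and 19.6% higher for IRP against NP.

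The count of 8 for IRP against NP rested in part on single libraries. It was 10 without IRP replicate 2, where the median log2 fold change was -1.16, but 4 without IRP replicate 1, 4 without IRP replicate 3, 4 without IRP replicate 4 and 5 without NP replicate 3. For IRV against NV, leaving out each library in turn gave 9 or 10 of 10. No share of all genes called is given beside the counts with a library left out, so they describe the members only.

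**Figure D4:**
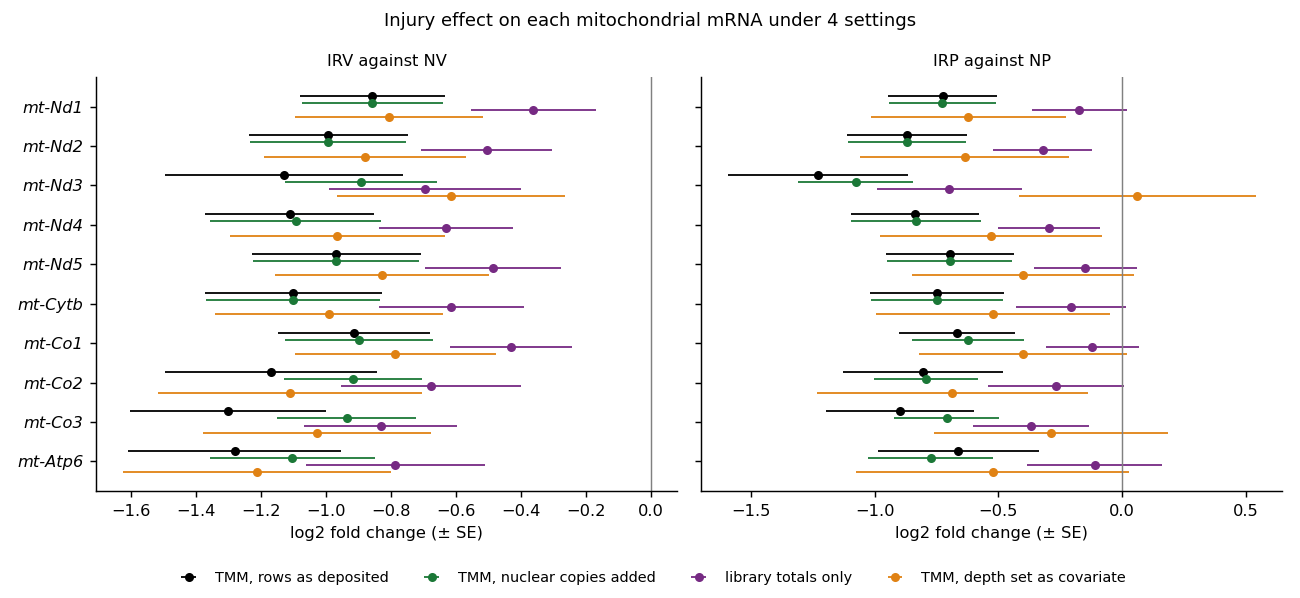
Log2 fold change ± SE (horizontal axes) of each mitochondrial mRNA for IRV against NV (left) and IRP against NP (right) under 4 settings: TMM scaling with rows as deposited, TMM with the nuclear copies added, library totals without TMM factors, and TMM with the set of deep libraries as a covariate. On the left every estimate lies below 0, and on the right mt-Nd3 with the covariate, at 0.06, is the exception.

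How far these genes were called lower depended on the scaling and on the depth of the libraries. TMM factors were 1.07 to 1.40 in IRP, 1.02 to 1.33 in IRV, 0.792 to 0.881 in NP and 0.779 to 0.867 in NV libraries. With library totals alone, the median over all genes moved to 0.49 for IRV against NV and to 0.57 for IRP against NP, while the medians of the 10 were -0.62 and -0.24. The number called lower was then 5 of 10 (mt-Nd2, mt-Nd4, mt-Cytb, mt-Co3 and mt-Atp6) for IRV against NV, beside 1.81% of all genes called lower and 42% called higher. It was 1 of 10 (mt-Nd3) for IRP against NP, beside 13.1% called lower and 51.5% called higher. Every member's estimate stayed below 0 in both comparisons under this scaling. With the set of deep libraries as a covariate none of the 10 was called in either comparison, beside 6.13% of genes called lower and 7.93% higher for IRV against NV and 0.786% lower and 2.52% higher for IRP against NP, and the medians of the 10 were -0.92 and -0.52. Within the shallow libraries alone, which leave IRV replicates 1 and 2 against the 4 NV libraries, mt-Nd4, mt-Co2, mt-Co3 and mt-Atp6 were called lower, beside 6.83% of 12892 genes called lower and 6.58% higher, and the median of the 10 was -0.93. IRP and NP share no depth set, so that depth and injury cannot be told apart within that comparison. Only IRV holds both depths, so that every estimate with the covariate rests on IRV replicates 1 and 2 against 3 and 4.

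PJ34 against vehicle was compared in injured and in uninjured kidneys. None of the 10 was called for IRP against IRV, beside 0% of all genes in either direction, and none had an unadjusted p below 0.05. All 10 estimates were positive, with log2 fold changes from 0.10 (mt-Nd2) to 0.44 (mt-Atp6), and their 95% intervals reached from -0.63 to 1.12. The other estimates were 0.12 for mt-Nd1, 0.13 for mt-Nd3, 0.23 for mt-Nd4, 0.24 for mt-Nd5, 0.27 for mt-Co1, 0.28 for mt-Co2, 0.32 for mt-Co3 and 0.33 for mt-Cytb. Adding the copies gave a range of 0.10 to 0.33, with mt-Atp6 at 0.26. The positive direction rested on IRP replicate 2, since without it the median of the 10 was -0.10, against 0.25 with all libraries. mt-Cytb, for which the estimate was 0.33 ± 0.27 (edgeR adjusted p = 0.77), averaged 21990 ± 9018 CPM in IRP and 17446 ± 5081 CPM in IRV. DESeq2 called 9.38% of all genes lower and 0.0367% higher in this comparison, and library totals alone 3.09% lower and 0.00735% higher, and in both none of the 10 was called.

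In uninjured kidneys the 10 genes were close to equal in mean. Log2 fold changes of NP against NV ran from -0.18 (mt-Atp6) to 0.23 (mt-Nd3) as deposited and from -0.068 to 0.35 with the copies added, none was called, beside 0% of all genes in either direction, and none had an unadjusted p below 0.05. The other estimates were -0.086 for mt-Co2, -0.079 for mt-Co3, -0.042 for mt-Nd4, -0.033 for mt-Nd5, -0.021 for mt-Nd2, -0.017 for mt-Cytb, -0.015 for mt-Nd1 and 0.025 for mt-Co1. The 95% intervals reached from -0.86 to 0.99. mt-Co1 averaged 50894 ± 3320 CPM in NP and 50034 ± 3081 CPM in NV, and mt-Nd1 averaged 24833 ± 2152 CPM in NP and 25089 ± 2435 CPM in NV. The interaction, the PJ34 effect in injured minus that in uninjured kidneys, ran from -0.10 (mt-Nd3) to 0.62 (mt-Atp6) on the log2 scale. It was 0.12 for mt-Nd2, 0.13 for mt-Nd1, 0.25 for mt-Co1, 0.27 for mt-Nd4 and for mt-Nd5, 0.35 for mt-Cytb, 0.36 for mt-Co2 and 0.40 for mt-Co3. Adding the copies gave a range of -0.18 to 0.35, with mt-Atp6 at 0.33. The estimate was positive for 9 of 10, with intervals from -1.18 to 1.58, none was called, beside 0% of all genes, and none had an unadjusted p below 0.05. Without IRP replicate 2 the median of the 10 interaction estimates was -0.04, against 0.27 with all libraries.

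The proportions of the 10 messenger RNAs were compared as percent of their summed counts. mt-Co1 took the most counts of the 10, between 17.3% and 23.0% of their sum in single libraries, and mt-Nd3 the fewest, between 0.209% and 0.779%. The coefficient of variation of this proportion over the 16 libraries was 3.17% for mt-Nd5, 4.10% for mt-Cytb, 4.76% for mt-Nd2 and 5.15% for mt-Nd4. It was 14.9% for mt-Atp6, 14.2% for mt-Co3, 13.2% for mt-Co2 and 28.2% for mt-Nd3, the 4 genes whose copies took counts unevenly. With the copies added it was 4.95% for mt-Atp6, 7.83% for mt-Co3, 5.63% for mt-Co2 and 16.7% for mt-Nd3, and higher than as deposited for mt-Nd4 (6.04%), mt-Cytb (5.98%), mt-Nd2 (5.17%) and mt-Nd5 (3.89%). mt-Nd1, which has no copy, varied by 10.6%, with 13.4% of the sum in IRV replicate 3 and 8.95% in NV replicate 2. Some groups did not overlap. mt-Nd2 took 8.57% to 9.27% in IRP, below NP (9.35% to 9.87%) and IRV (9.42% to 10.5%). mt-Cytb took 12.7% to 14.10% in IRV, below NV (14.13% to 14.4%). With the copies added these overlapped, while mt-Nd4 in IRV (12.9% to 15.04%) lay below NV (15.2% to 15.4%). mt-Nd3 was then higher in NP (0.431% to 0.623%) than in IRP (0.388% to 0.418%) and NV (0.378% to 0.426%).

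Each member was tested against the others in a fit with the member sum as library size. In that fit none of the 10 was called in any of the 5 comparisons, and none had an unadjusted p below 0.05. The spread was estimated across all genes at that scaling, so that the lack of a call does not show equal proportions. For IRV against NV the estimates ran from -0.26 (mt-Atp6) to 0.20 (mt-Nd1), beside 0.198% of all genes called lower and 64.9% called higher than the sum. For IRP against NP they ran from -0.54 (mt-Nd3) to 0.09 (mt-Atp6), beside 11.2% called lower and 56.4% called higher, and the lowest adjusted p was 0.072 for mt-Nd3. Once the copies were added the estimates ran from -0.12 to 0.15 for IRV against NV and from -0.34 to 0.13 for IRP against NP. For mt-Nd3 the direction did not hold, with 0.52 in this comparison once the set of deep libraries was a covariate. For IRP against IRV the range was -0.18 to 0.19, beside 6.49% of genes called lower and 0.00735% higher, for NP against NV -0.17 to 0.27, beside 0% in either direction, and for the interaction -0.44 to 0.36, beside 0% in either direction.

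The other genes of the mitochondrial genome moved in the same direction. All 5 of them that passed the filter were called lower in both injury comparisons. Of all genes 11.1% were called lower and 15.9% higher for IRV against NV, and 24% and 19.6% for IRP against NP. mt-Nd4l, a complex I subunit, averaged 985 ± 388 CPM in IRP, 848 ± 206 CPM in IRV, 2023 ± 335 CPM in NP and 2056 ± 266 CPM in NV, with log2 fold changes of -1.28 ± 0.23 for IRV against NV (edgeR adjusted p = 0.00085) and -1.04 ± 0.23 for IRP against NP (edgeR adjusted p = 0.0020). mt-Nd6, the only protein-coding gene transcribed from the opposite strand, changed by -1.18 ± 0.34 (edgeR adjusted p = 0.016) and -1.56 ± 0.34 (edgeR adjusted p = 0.0018). The strand setting of the counting was not given in the sources used here, so that its reads and those antisense to it cannot be told apart. mt-Atp8, a small subunit of ATP synthase, changed by -0.85 ± 0.29 (edgeR adjusted p = 0.037) and -1.22 ± 0.29 (edgeR adjusted p = 0.0029). The ribosomal RNAs mt-Rnr1 and mt-Rnr2, which are made from the same strand as most of the messenger RNAs, changed by -1.30 ± 0.30 (edgeR adjusted p = 0.0044) and -1.26 ± 0.28 (edgeR adjusted p = 0.0035) for IRV against NV and by -1.53 ± 0.30 (edgeR adjusted p = 0.00089) and -1.24 ± 0.28 (edgeR adjusted p = 0.0022) for IRP against NP. Poly(A) selection captures ribosomal RNA only in part, so that their low levels, 1079.5 ± 431 CPM of mt-Rnr2 in IRP and 2556 ± 317 CPM in NP, are no measure of the ribosomal RNA in the tissue. With the depth covariate 3 of these 5 genes were called lower for IRV against NV and none for IRP against NP, beside 6.13% and 0.786% of all genes. With library totals alone 4 and 5 of the 5 were called lower, at medians of -0.79 and -0.70, beside 1.81% and 13.1% of all genes. The 10 members had 5 and 1 called lower under that scaling. Of the 22 mitochondrial transfer RNAs 4 were in the table, all nearly without counts. The values of mt-Nd4l are as deposited, and the copy Gm10222 is identical to 294 of its 297 bases. Gm10222 had counts in every IRV library and in no NV library. As a share of the library, mt-Nd4l alone ranged 0.0708% to 0.114% in IRV, below NV at 0.147% to 0.189%. With the copy added, IRV ranged 0.0807% to 0.164% and overlapped NV. The sum ranged 0.105% to 0.196% in IRP and 0.172% to 0.250% in NP.

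The nuclear partners of these proteins were lower as well. Of 73 nuclear subunits of complexes I, III, IV and ATP synthase that were tested, 66 were called lower in IRV against NV, with a median log2 fold change of -0.78. In IRP against NP 65 were called lower, with a median of -0.59. None was called higher in either. Of all genes 11.1% were called lower and 15.9% higher for IRV against NV, and 24% lower and 19.6% higher for IRP against NP. The quartiles of the 73 were -0.89 and -0.69 for IRV against NV. Of the 10 mitochondrial genes mt-Nd1, at -0.86, lay within these quartiles and the other 9 lay below them. By complex, 31 of 36 complex I subunits fell in IRV against NV and 30 in IRP against NP, 9 of 9 in both for complex III, 11 of 12 in both for complex IV and 15 of 16 in both for ATP synthase. Cox4i1, a structural subunit of cytochrome c oxidase, changed by -0.95 ± 0.15 (edgeR adjusted p = 0.00021) and Ndufs1, which carries iron-sulfur clusters in complex I, by -0.91 ± 0.15 (edgeR adjusted p = 0.00034) in IRV against NV. Uqcrq of complex III changed by -1.25 ± 0.21 (edgeR adjusted p = 0.00044) in IRV against NV, and Atp5k of ATP synthase by -1.02 ± 0.19 (edgeR adjusted p = 0.00056) in IRP against NP. The standard errors of the mitochondrial genes ran from 0.22 to 0.37. Those of the nuclear genes named here are no comparison, because naming by the smallest p favours small errors. With the depth covariate 54 of the 73 were called lower for IRV against NV and 3 for IRP against NP, at medians of -0.82 and -0.57. With library totals alone 14 and 2 were called lower, at medians of -0.27 and -0.02, and 1 was called higher for IRP against NP. Of all genes the covariate called 6.13% and 0.786% lower, and library totals 1.81% and 13.1%. With the covariate the medians of the 10 mitochondrial genes were -0.92 and -0.52, so that for IRP against NP they fell less in median than the nuclear subunits.

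**Figure D5:**
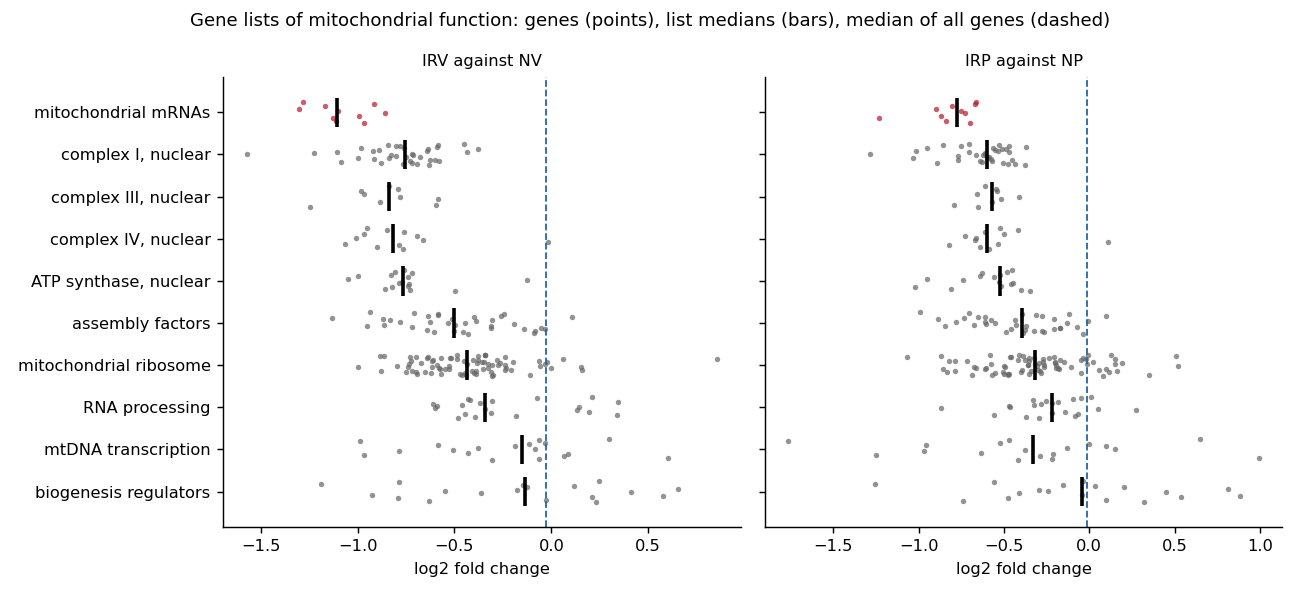
Log2 fold change (horizontal axes) of the 10 mitochondrial mRNAs (red points) and of gene lists of mitochondrial function (grey points, 1 a gene) for IRV against NV (left) and IRP against NP (right), with the list median (black bar) and the median of all genes tested (dashed line, -0.03 and -0.01). The medians of the 10 mRNAs, -1.11 and -0.78, are the lowest in each panel, followed by the nuclear subunits of the 4 complexes.

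The genes that make, process and translate mitochondrial RNA moved less as lists. Of 18 genes of mitochondrial DNA transcription and replication, 3 fell and none rose in IRV against NV, and 4 fell and 1 rose in IRP against NP. These counts stand beside 11.1% of all genes called lower and 15.9% higher for IRV against NV, and 24% and 19.6% for IRP against NP. Among those that fell were Ssbp1, the mitochondrial single-strand binding protein, at -0.79 ± 0.22 (edgeR adjusted p = 0.014) in IRV against NV and -0.97 ± 0.21 (edgeR adjusted p = 0.0017) in IRP against NP, and Mterf3, a negative regulator of mitochondrial transcription, at -0.99 ± 0.32 (edgeR adjusted p = 0.030) and -1.76 ± 0.31 (edgeR adjusted p = 0.00037). The third in IRV against NV was Rrm2b, a ribonucleotide reductase subunit, at -0.51 ± 0.15 (edgeR adjusted p = 0.016). The gene that rose was Tk2, the mitochondrial thymidine kinase, at 0.99 ± 0.30 (edgeR adjusted p = 0.012) in IRP against NP. With the depth covariate none of this list was called. Library totals alone called 3 higher and none lower in IRV against NV and 4 higher and 1 lower in IRP against NP. Of all genes library totals called 42% and 51.5% higher, and 1.81% and 13.1% lower. The mitochondrial RNA polymerase Polrmt was not called in either comparison, at -0.19 ± 0.20 (edgeR adjusted p = 0.61) and 0.10 ± 0.19 (edgeR adjusted p = 0.78), but with library totals alone it was called higher in IRP against NP, at 0.66 ± 0.20 (adjusted p = 0.0091). The transcription and packaging factor Tfam averaged 25.2 ± 2.7 CPM in IRP, 25.1 ± 2.9 CPM in IRV, 29.2 ± 7.1 CPM in NP and 23.6 ± 2.7 CPM in NV. It was not called either, at 0.09 ± 0.17 (edgeR adjusted p = 0.73) and -0.21 ± 0.16 (edgeR adjusted p = 0.30), and library totals alone gave 0.61 ± 0.19 (adjusted p = 0.015) for IRV against NV.

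Among 21 genes of mitochondrial RNA processing and stability, 3 fell in IRV against NV and 2 in IRP against NP. This count and those of the next lists stand beside 11.1% and 24% of all genes called lower. Lrpprc, which binds and stabilises mitochondrial messenger RNAs, had 69.0 to 89.1 CPM in IRP libraries, 49.3 to 92.2 CPM in IRV, 91.3 to 125.7 CPM in NP and 105.2 to 124.8 CPM in NV. It changed by -0.59 ± 0.15 (edgeR adjusted p = 0.0091) in IRV against NV and by -0.47 ± 0.15 (edgeR adjusted p = 0.019) in IRP against NP. With the depth covariate Lrpprc was called lower in both, at -0.87 ± 0.18 (adjusted p = 0.0035) and -0.94 ± 0.23 (adjusted p = 0.030). The depth effect in that fit comes from IRV alone, where Lrpprc had 49.3, 71.1, 78.0 and 92.2 CPM in replicates 1 to 4. With library totals alone Lrpprc was called in neither, at -0.07 and 0.10. Grsf1, a protein of mitochondrial RNA granules, changed by -0.61 ± 0.14 (edgeR adjusted p = 0.0041) in IRV against NV, and Pde12, which removes poly(A) tails in mitochondria, by -0.87 ± 0.23 (edgeR adjusted p = 0.0055) in IRP against NP. Pde12 was at 0.035 with the depth covariate and not called. Neither Grsf1 nor Pde12 was called with library totals alone, at -0.11 and -0.28. That scaling called 5 genes of this list higher in IRV against NV and 6 in IRP against NP, beside 42% and 51.5% of all genes. Of 79 mitochondrial ribosomal proteins 21 fell in each comparison, with medians of -0.44 and -0.32, and none rose. Of 36 assembly factors of the complexes 11 and 12 fell, with medians of -0.50 and -0.39, and none rose. Library totals alone turned the medians of these lists positive, to 0.10 and 0.25 for the ribosomal proteins and to 0.04 and 0.19 for the assembly factors, still below the medians of all genes under that scaling. It called 2 and 16 ribosomal proteins higher and none and 1 lower, beside 1.81% and 13.1% of all genes called lower.

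Regulators of mitochondrial biogenesis moved in both directions. Of 18 tested, 5 fell and 1 rose in IRV against NV, and 5 fell and 4 rose in IRP against NP. Among all genes 11.1% fell and 15.9% rose in IRV against NV, and 24% fell and 19.6% rose in IRP against NP. Ppargc1a, the coactivator PGC-1alpha, averaged 73.2 ± 11.1 CPM in IRP, 68.1 ± 4.9 CPM in IRV, 96.9 ± 8.7 CPM in NP and 88.2 ± 13.7 CPM in NV, with log2 fold changes of -0.36 ± 0.13 (edgeR adjusted p = 0.0497) in IRV against NV and -0.41 ± 0.13 (edgeR adjusted p = 0.015) in IRP against NP. Library totals alone turned both estimates positive, to 0.15 and 0.16, with neither called. Esrra, the nuclear receptor through which PGC-1alpha acts on respiratory genes, changed by -0.79 ± 0.16 (edgeR adjusted p = 0.0017) in IRV against NV, and by -0.28 with library totals alone, which did not pass. Nfe2l2, the oxidative stress regulator NRF2, rose by 0.65 ± 0.16 (edgeR adjusted p = 0.0069) in IRV against NV and by 0.82 ± 0.16 (edgeR adjusted p = 0.00081) in IRP against NP. Neither Ppargc1a nor Nfe2l2 was called with the depth covariate, at -0.43 and -0.53 for Ppargc1a and 0.40 and 0.39 for Nfe2l2. Library totals alone called 7 of the 18 higher and none lower in IRV against NV, and 9 higher and 1 lower in IRP against NP. That scaling called 42% and 51.5% of all genes higher and 1.81% and 13.1% lower. Of 16 mitophagy genes, which serve the removal of mitochondria, 4 fell and 1 rose in IRV against NV, and 2 fell and 2 rose in IRP against NP. Library totals alone called 6 higher and none lower, and 10 higher and 1 lower, beside the same shares of all genes. Among them Bnip3, a mitophagy receptor, changed by -0.71 ± 0.15 (edgeR adjusted p = 0.0021) and -0.55 ± 0.14 (edgeR adjusted p = 0.0052), and by -0.19 and 0.02 with library totals alone. No gene of these lists was called for IRP against IRV, NP against NV or the interaction.

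Markers of kidney cell types also differed between groups, and those of the proximal tubule fell as the mitochondrial messenger RNAs did. Of 12 proximal tubule markers, 11 fell in IRV against NV and 10 in IRP against NP, with medians of -0.99 and -0.87 beside -1.11 and -0.78 for the 10 mitochondrial genes. Among all genes 11.1% and 24% were called lower and 15.9% and 19.6% higher. With the depth covariate 11 and 2 of these markers were called lower, at medians of -1.11 and -1.05, and with library totals alone 4 and 2. Among the injured libraries IRP replicate 2, the highest in mitochondrial share, had the highest summed proximal tubule level (23043 CPM). IRP replicate 1 had the lowest (10869 CPM), while IRV replicate 1, the lowest in mitochondrial share (10.2%), had 11246 CPM. IRV replicate 4 had more than IRP replicate 3 (15949 against 15044 CPM) at a smaller mitochondrial share (15.8% against 18.6%). Markers of white blood cells summed to 725 to 1897 CPM in IRP, 992 to 1759 CPM in IRV, 153 to 206 CPM in NP and 124 to 181 CPM in NV, and 8 of 9 rose in both comparisons. Only Cd79a, a B cell marker, was at 0 in any library, in 5 of 16. Fibroblast markers summed to 932 to 2454 CPM in IRP, 1315 to 2072 CPM in IRV, 271 to 405 CPM in NP and 171 to 353 CPM in NV, and 6 of 8 rose in both. Endothelial markers rose for 2 of 6 in IRV against NV and for 4 of 6 in IRP against NP, for all 6 in both with library totals alone and for none with the depth covariate. Of 9 markers of the loop of Henle and distal tubule 3 fell in both, while library totals alone called 4 higher and none lower in IRP against NP. The summed level of the loop and distal list was 1836 to 4734 CPM in IRP, 2198 to 3082 CPM in IRV, 3817 to 5029 CPM in NP and 4244 to 4702 CPM in NV. Among injured libraries IRP replicate 2 was again the highest and IRP replicate 1 the lowest. A lower sum in IRV than in NV was thus not particular to the proximal tubule. Library totals alone called 42% of all genes higher in IRV against NV and 51.5% in IRP against NP. Of 4 red blood cell genes none passed in IRV against NV and 3 fell in IRP against NP. The part of these shifts in the lower level of the mitochondrial messenger RNAs was not tested.

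The nuclear genes whose level ran most like the members were those with the highest Pearson correlation with the mean log2 CPM of the 10 over the 16 libraries, among the 7530 genes whose mean log2 CPM was 4 or more. They were Chpt1, a choline phosphotransferase of phospholipid synthesis (r = 0.98), Mpc1, a subunit of the mitochondrial pyruvate carrier (r = 0.98), Oxct1, a mitochondrial enzyme of ketone body use (r = 0.97), AI314278 (r = 0.97) and Ndufs6, a complex I subunit (r = 0.97). The 16 libraries share the contrast of injured and uninjured groups and its scaling, and the values are a description. Within the 10 shallow libraries r was 0.94 to 0.98 and within the 6 deep libraries 0.92 to 0.97. Mpc1, for example, averaged 129 ± 36 CPM in IRP, 110.5 ± 30 CPM in IRV, 229 ± 37 CPM in NP and 238 ± 23 CPM in NV.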

How the data were processed

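Poly(A)-selected kidney RNA of 16 libraries was sequenced with a directional kit, per the labels' protocols. The submitters' processing notes list Salmon 1.3.0 with build GRCm39, beside DESeq2 1.30.1, Trim Galore 0.6.6 and FastQC 0.11.3. The authors deposited expected counts per gene, in whole numbers and not normalised. Salmon shares reads among similar transcripts, which bears on genes with nuclear copies. The options of that step, with the use of strand and of molecular identifiers, were not given in the sources used here.

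Genes were tested with edgeR 4.0.16 in R 4.3.3 (quasi-likelihood test, TMM, filterByExpr at a minimum count of 10, 16 libraries in 1 fit with group as the only term, Benjamini-Hochberg over all genes tested, threshold 0.05). A second fit used the member sum as library size. The procedure was tested on simulated data. Alternatives were DESeq2 1.42.0, limma-voom (limma 3.58.1), library totals only, scaling without mitochondrial genes, no filter on low counts, the replicate block, the depth set as covariate, fits of 2 groups, single depth sets and leaving out each library. Nuclear copies were found with blastn 2.17.0 in GENCODE M21 transcripts (GRCm38), which also gave lengths and sequences. Adding the copies' counts was chosen after seeing the data, because 4 of 14 listed copies had no match and 1 further copy was found. No coordinates are given, since that build is not the one of the files. Symbols were matched for 40276 of 40472 identifiers.

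The members, gene lists and depth sets were chosen with earlier results of these data known, so that no p-value is adjusted over a list. All 10 members are named in every comparison of groups. Of each list the up to 3 genes with the smallest p among those called could be named, and Ppargc1a, Tfam, Polrmt and Lrpprc whatever their values. The lowest chi-square per degree of freedom between libraries of a group was 1.81, so that no pair was treated as 1 library.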

Additional observations from a re-analysis of the deposited data

Results flagged for a closer look

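Among 84 groups of 4 libraries examined for a library far from the others (the level, and the proportion of the member sum, of each of the 10 genes, and the share of the library), 3 held one, where chance gives about 1 in 20, or 4.2. In IRP, mt-Co3 took 4.04% of the member sum in replicate 2, against 3.08% to 3.16% in the other 3 libraries. In NP, mt-Atp6 took 11.5% of the sum in replicate 1, against 7.46% to 8.05% in the others. Its identical nuclear copy Gm10925 took 29.7% of their joint counts in that library, its lowest part of all 16 libraries. In NV, mt-Nd3 took 0.510% of the sum in replicate 3, against 0.454% to 0.458% in the others.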

How the results depend on the processing

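The falls kept their direction under every alternative run, except mt-Nd3 for IRP against NP with the depth covariate (0.061). The number of members called, 10 for IRV against NV and 8 for IRP against NP, was 5 and 1 with library totals only, 2 and 1 with no filter on low counts, 0 and 0 with the depth set as a covariate, and 2 and 0 with that covariate and the copies added. It was 4 for IRV against NV within the shallow libraries, as deposited and with the copies added, and 3 for IRP against NP in the fit of these 2 groups alone. Leaving out each library in turn gave 9 to 10 for IRV against NV and 4 to 10 for IRP against NP, and 0 in the other comparisons. With the depth covariate and the copies added, 6.18% and 0.794% of all genes were called lower. No share of all genes is given beside the counts with no filter, a fit of 2 groups, a library left out or a replicate block. DESeq2 and limma-voom each called 10 and 9. Of all genes DESeq2 called 11.5% and 24.1% lower, and limma-voom 24.4% and 24.2%. Scaling without the mitochondrial genes did not change a count by over 1.5 times. The replicate numbers did not pair the libraries (24 same-numbered pairs, r from -0.23 to 0.26, 5 over 0.1), and a replicate block called 10 and 9 and turned mt-Cytb for NP against NV to 0.00078. The causes of these changes were not tested.

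Shares of the library with the copies and the other mitochondrial genes added were 22.4% in IRP, 18.04% in IRV, 25.4% in NP and 25.6% in NV. With the copies added, the mean proportion of the sum was 8.38% for mt-Nd1, 7.92% for mt-Nd2, 14.5% for mt-Nd4, 11.4% for mt-Nd5, 11.8% for mt-Cytb, 17.7% for mt-Co1, 8.73% for mt-Co2, 4.91% for mt-Co3 and 14.1% for mt-Atp6.

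Estimates that were not called changed sign as follows. With the copies added, NP against NV was 0.021 for mt-Co2 and 0.060 for mt-Co3, with or without the depth covariate. The interaction of mt-Nd3 was 0.11 with no filter, 0.68 with the depth covariate and 0.15 with that and the copies added. Relative to the member sum with the copies added, IRV against NV was -0.0036 for mt-Nd2, 0.11 for mt-Nd3, 0.093 for mt-Co2 and 0.077 for mt-Co3, and IRP against NP was 0.034 for mt-Co3 and -0.039 for mt-Atp6. Relative to the sum with the depth covariate, mt-Nd3 was 0.35 for IRV against NV and 0.52 for IRP against NP, where mt-Nd1 was -0.089, mt-Co3 0.20 and mt-Atp6 -0.058.

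Leaving out each library in turn, IRP against IRV ran from -0.13 to 0.27 for mt-Nd1, -0.16 to 0.30 for mt-Nd2, -0.27 to 0.48 for mt-Nd3, -0.10 to 0.41 for mt-Nd4, -0.046 to 0.46 for mt-Nd5, -0.11 to 0.53 for mt-Co2 and -0.13 to 0.56 for mt-Co3. NP against NV ran from -0.068 to 0.044 for mt-Nd1, -0.10 to 0.038 for mt-Nd2, -0.11 to 0.051 for mt-Nd4, -0.092 to 0.047 for mt-Nd5, -0.071 to 0.047 for mt-Cytb, -0.013 to 0.064 for mt-Co1, -0.26 to 0.031 for mt-Co2 and -0.15 to 0.020 for mt-Co3. The interaction ran from -0.11 to 0.29 for mt-Nd1, -0.14 to 0.32 for mt-Nd2, -0.50 to 0.26 for mt-Nd3, -0.053 to 0.46 for mt-Nd4, -0.0098 to 0.50 for mt-Nd5, -0.0035 to 0.41 for mt-Co1, -0.021 to 0.61 for mt-Co2 and -0.050 to 0.64 for mt-Co3. Relative to the sum, mt-Nd3 ran from -0.35 to 0.14 for IRV against NV, and for IRP against NP mt-Co2 ran from -0.20 to 0.0014 and mt-Cytb from -0.034 to 0.012.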
